A study of Ctenopharyngodon idella and Danio rerio with 13 samples.

Results

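Hox genes were taken as the entries of the grass carp gene table whose symbol is hox, a cluster letter from a to d, a paralog number and a duplicate letter. The rule found 47 of 31314 named entries, and it used no measured value. By cluster letter and duplicate letter, 5 genes were named hoxaa, 5 hoxab, 11 hoxba, 4 hoxbb, 11 hoxca, 4 hoxcb and 7 hoxda. By position along the clusters, 10 belonged to the anterior paralog groups 1 to 3, 15 to the central groups 4 to 8 and 22 to the posterior groups 9 to 13.

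Sperm RNA was counted per gene in 13 libraries, each from a different fish. The 3 GSCT libraries came from zebrafish hosts that had received female germline stem cells of grass carp, labelled as surrogate reproduction. The 5 grass carp and 5 zebrafish libraries came from fish labelled wildtype. The study asked how alike the 3 kinds of sperm are. Diluted sperm went into a full-length mRNA amplification reaction made for single cells. For strain, age and any germ cells of their own left in the GSCT hosts, nothing was found in the labels. Genes of the files are grass carp genes, so a zebrafish count is a zebrafish read that aligned to a grass carp gene.

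Hox genes encode homeodomain transcription factors that lie in chromosomal clusters. In the embryo their order in a cluster follows the part of the head-to-tail axis where each is used, from hindbrain for the anterior genes to tail and fin tip for the posterior ones. Teleost fish carry duplicate clusters, marked by the final letter a or b, and their homeodomains are highly conserved between species.

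Named genes held 376926 to 2602370 counts in GSCT, 1335167 to 5471312 in grass carp and 487 to 248321 in zebrafish libraries, the lowest being zebrafish replicate 3. Levels are given as CPM, counts scaled to the library's total on named genes. A floor of 3 counts stood for 1.15 to 7.96 CPM in GSCT, for 0.548 to 2.25 in grass carp and for 12.1 to 6160 in zebrafish, depending on the library. rRNA genes took 9.24% to 86.1% of named counts in zebrafish, 0.994% to 1.79% of them in GSCT and 0.0553% to 0.118% in grass carp libraries. Sperm markers, 9 of 12 listed genes being in the files, summed to 542 to 626 CPM in GSCT, 563 to 630 in grass carp and 0 to 169 in zebrafish. Markers of other cells were also counted: 7 of 8 blood genes summed to 199 to 257 CPM in GSCT, 234 to 258 in grass carp and 0 to 5.46 in zebrafish. The 6 of 8 listed testis somatic genes in the files summed to 157 to 164, 144 to 161 and 0 to 12.1 CPM, and the 8 epithelium and mesoderm genes to 188 to 195, 157 to 206 and 0 to 235 CPM. The 7 of 8 germ cell genes in the files summed to 264 to 284 CPM in GSCT, 279 to 329 in grass carp and 0 to 2293 in zebrafish. In zebrafish only sycp1, with 499 counts, and piwil1, with 3, were counted among these 7. All these sums depend on list size and on single genes: the sperm markers hydin and dnah1 had 207 and 181 CPM on average in GSCT. The GSCT median per list was 30.9 CPM for sperm, 33.7 for germ cell and 35.6 for blood genes. It was 24.9 for testis somatic and 21.2 for epithelium and mesoderm genes, beside 26.7 for other coding genes. Of these marker lists, the meiotic gene sycp1 and the heme synthesis gene alas2 passed edgeR's test between GSCT and grass carp, at -0.64 ± 0.18 and -1.22 ± 0.31 on the log2 scale (SE; edgeR adjusted p 0.0447 and 0.0288). They were 1 of 7 germ cell and 1 of 7 blood genes, with 0 called in the other marker lists, beside 4.34% of 28165 genes tested. The part of these cells in the Hox values was not tested, and in bulk libraries fewer cells of a type and less RNA per cell cannot be told apart.

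Hox genes were counted in nearly every GSCT and grass carp library, at a low level, and took a similar share of both kinds. They took 0.0936%, 0.0799% and 0.0915% of named counts in GSCT replicates 1 to 3, a mean of 0.0883% ± 0.00736 (SD, n = 3). In grass carp the shares were 0.105%, 0.0847%, 0.0987%, 0.0964% and 0.0983%, a mean of 0.0967% ± 0.00747 (SD, n = 5). The groups overlapped. Each of the 47 genes had a count in all 5 grass carp libraries, and the only gaps in GSCT were hoxb7a, hoxa13a and hoxa13b, at 0 in GSCT replicate 3, the shallowest of its group. Other coding genes were counted about as often, at 99.2% to 99.7% in grass carp and 96.1% to 99.5% in GSCT libraries. In GSCT replicate 3 it was 93.6% of Hox genes beside 96.1%.

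Per length, the median Hox gene lay above the median of other protein-coding genes. The median Hox gene stood at 3.47 ± 0.680 CPM per kilobase of gene span (SD, n = 3) in GSCT, against 3.96 ± 0.823 (SD, n = 5) in grass carp. For other coding genes the medians were 2.28 ± 0.0940 and 2.52 ± 0.101 CPM per kilobase, and 28 genes that flank the clusters 2.06 ± 0.282 and 2.71 ± 0.231. Without division by span the order turned: the median Hox gene had 13.7 ± 1.84 CPM in GSCT libraries and 15.3 ± 1.84 in those of grass carp, and the median of other coding genes was 26.7 ± 0.559 and 28.3 ± 0.626 CPM. A level per kilobase above other coding genes was not particular to Hox genes. Testis somatic genes stood at 6.39 in GSCT and 4.99 in grass carp, and epithelium and mesoderm genes at 3.38 and 3.48. The upstream and ParaHox genes listed below stood at 3.46 and 3.57. TALE, retinoic acid and trithorax genes, also listed below, lay under other coding genes. They stood at 1.00, 0.868 and 1.81 in GSCT and at 1.01, 0.880 and 2.07 in grass carp. The span includes introns. Within a library, Hox counts rose with gene span, with a mean Spearman correlation across the 47 genes of 0.454 in GSCT and 0.445 in grass carp. Across other coding genes it was 0.629 and 0.657. What share of these reads came from spliced mRNA was not tested.

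The order of the clusters by level per kilobase was nearly the same in GSCT and grass carp, and it depended on the division by span. The hoxcb cluster had the highest median level per kilobase, 6.74 ± 1.29 CPM per kilobase (SD, n = 3) in GSCT, against 6.94 ± 1.1 (SD, n = 5) in grass carp. The hoxda cluster, whose posterior genes pattern the fins, followed with 5.74 ± 0.951 and 6.17 ± 0.539 CPM per kilobase. The hoxca cluster was lowest, at 2.16 ± 0.0999 in GSCT and 2.78 ± 0.344 in grass carp. Between these lay hoxaa, hoxbb, hoxba and hoxab, at 3.10 to 3.96 in GSCT and 3.59 to 5.70 in grass carp. Means ± SD of neighbours in this order overlapped, apart from those of hoxda and hoxaa in GSCT and of hoxab and hoxca in grass carp. Along the axis, the median was 2.66 ± 0.718 CPM per kilobase in grass carp for anterior, 4.31 ± 1.23 for central and 4.34 ± 0.682 for posterior genes. The GSCT medians were 2.09 ± 0.485, 3.72 ± 0.604 and 4.11 ± 0.982, so central and posterior genes could not be separated in either group. Without division by span the axis order turned: grass carp medians were 21.9 ± 2.74 CPM for anterior, 19 ± 4.63 for central and 13.2 ± 1.75 for posterior genes (SD, n = 5), and GSCT medians 17.4 ± 3.57, 17.9 ± 3.63 and 11.9 ± 2.15 CPM (SD, n = 3). On that scale hoxcb fell between the other clusters, at 13.9 ± 0.910 CPM in GSCT and 15.2 ± 2.07 in grass carp, below hoxba, hoxda, hoxbb and hoxaa at 15.4 to 17.5 and at 17.8 to 20.05 CPM. The hoxca cluster was lowest on both scales.

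Levels of single genes spanned a wide range. In grass carp the highest per kilobase was hoxb5a, which with hoxb4a and hoxb5b acts in pectoral fin positioning in zebrafish, at 16.5 ± 7.97 CPM per kilobase (SD, n = 5). In GSCT it stood at 8.58 ± 0.322 (SD, n = 3), below hoxc6b, which was at 13.2 ± 3.29 in GSCT and 12.7 ± 2.21 in grass carp. The lowest in grass carp were hoxc3a, hoxb3a and hoxa3a, at 0.555 ± 0.0491, 0.928 ± 0.274 and 1.04 ± 0.205 CPM per kilobase. The spans of these 3 overlap other genes in the RefSeq table: hoxb3a overlaps hoxb4a, hoxb5a and hoxb6a, and hoxc3a overlaps hoxc4a. Altogether 11 Hox genes overlap another gene there, hoxb5b and hoxb6b among them, and how the authors' counting shared such reads is unknown here.

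In each cluster the genes with the highest and lowest grass carp CPM showed how far levels varied between fish. In hoxcb, hoxc6b had 74.5, 77.2 and 114 CPM in GSCT and 71.7, 107, 72.8, 81.6 and 93.4 in grass carp. At the other end of that cluster, hoxc13b, whose counterpart Hoxc13 shapes hair and nails in the mouse, had 12.7, 14.97 and 2.65 CPM in GSCT and 11.1, 11.5, 11.1, 13.5 and 13.7 in grass carp. GSCT replicate 3 alone fell below the grass carp range for hoxc13b, but its value is 1 count, under the floor of 3 counts. The fish of both kinds were mixed for hoxc6b.

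In hoxda, hoxd10a was lowest, with 19.6, 14.0 and 10.6 CPM in GSCT and 15.4, 9.67, 14.0, 15.7 and 10.97 in grass carp. In hoxab, hoxa2b, a zebrafish selector of hyoid arch identity, had 46.1, 43.5 and 42.4 CPM in GSCT and 51.8, 33.7, 50.01, 38.9 and 41.7 in grass carp. The groups overlapped in both genes. The lowest of hoxab, the posterior fin gene hoxa13b, had 6.53, 3.27 and 0 CPM in GSCT and 8.21, 7.06, 11.3, 3.00 and 7.13 in grass carp, again overlapping.

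In hoxaa, hoxa5a had 23.1, 41.2 and 42.4 CPM in GSCT and 33.6, 29.5, 29.4, 41.9 and 26.3 in grass carp. The anterior gene hoxa1a of that cluster had 10.8, 12.2 and 13.3 CPM in GSCT and 11.9, 9.15, 18.3, 6.74 and 7.49 in grass carp. Neither gene separated the groups. In hoxbb, hoxb6b had 28.8, 21.5 and 10.6 CPM in GSCT and 25.4, 14.1, 31.5, 26.2 and 22.1 in grass carp. The lowest of hoxbb, hoxb8b, had 11.1, 12.2 and 10.6 CPM in GSCT and 22.1, 7.84, 15.5, 12.7 and 13.3 in grass carp. The grass carp libraries enclosed all GSCT libraries for hoxb8b, and all but GSCT replicate 3 for hoxb6b.

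In hoxba the lowest gene, hoxb7a, had 4.61, 3.27 and 0 CPM in GSCT and 7.04, 4.44, 7.17, 4.49 and 4.57 in grass carp. In hoxca the lowest was hoxc9a, whose mouse counterpart Hoxc9 sets thoracic motor neuron identity, with 6.15, 5.61 and 5.31 CPM in GSCT and 8.21, 8.10, 7.74, 5.99 and 7.31 in grass carp. For hoxc9a the highest GSCT library lay just inside the grass carp range, and the 5.31 CPM of GSCT replicate 3 is 2 counts, under the floor of 3 counts. For hoxb7a the highest GSCT library, at 4.61 CPM, lay above the grass carp median of 4.57 CPM. The coefficient of variation over the 5 grass carp had a median of 20.6% for Hox genes, from 7.42% for hoxb1b to 48.4% for hoxb5a, and of 16.0% for other coding genes. Median CPM there was 15.3 for Hox genes and 28.3 for other coding genes, so this is not a comparison at like levels. Whether Hox genes varied more between fish was not tested. Across the 47 genes, mean CPM in GSCT and in grass carp had a Spearman correlation of 0.902, which describes these libraries, since genes share library depth and are not independent.

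**Figure D1:**
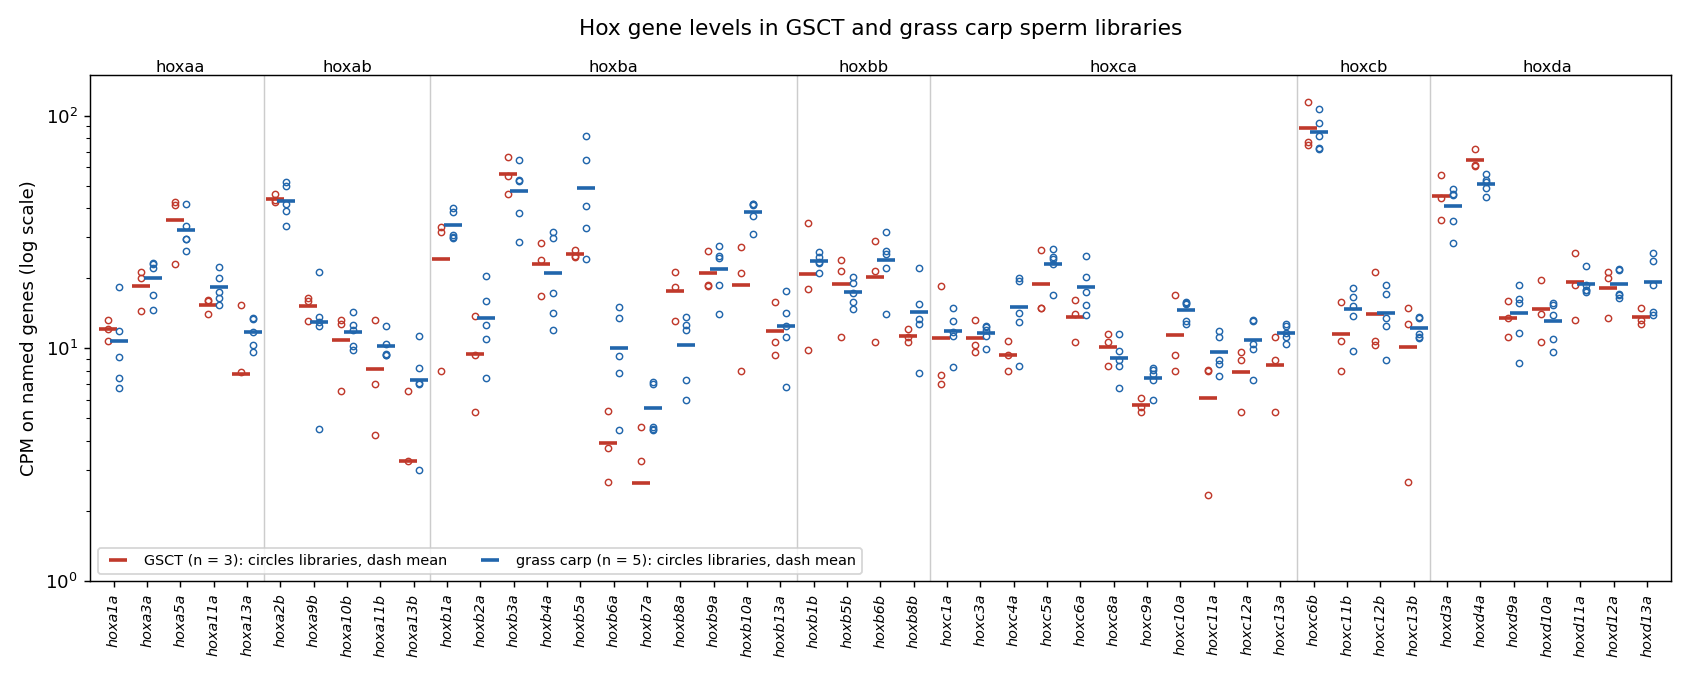
Each circle is the level of 1 Hox gene in 1 library, in CPM on a log scale, with dashes at the group means, for 3 GSCT and 5 grass carp libraries, ordered by cluster. The GSCT and grass carp circles of most genes overlap, hoxc6b is highest in both groups, and values of 0 (hoxb7a, hoxa13a and hoxa13b in GSCT replicate 3) are not drawn.

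No Hox gene passed the test between GSCT and grass carp. By edgeR's quasi-likelihood test, 0 of 47 passed an adjusted p of 0.05, beside 4.34% of 28165 genes tested. DESeq2 also called 0 of them, beside 968 of 28165 genes. An unadjusted p under 0.05 was found for 5 Hox genes (10.6%) by edgeR, beside 20% of all genes. By DESeq2 it was 4 Hox genes, beside 4212 of 28165 genes. The edgeR log2 fold change was below 0 in 29 Hox genes (61.7%), beside 51.7% of all genes, with a median of -0.15 against -0.03 for other coding genes. That median was -0.05 without grass carp replicate 1, -0.08 without GSCT replicate 2 and -0.24 without GSCT replicate 1, with 28, 25 and 36 Hox genes below 0. Only hoxb10a was lower in every GSCT library than in every grass carp library, 2.13% of the Hox genes beside 9.67% of all genes. Only hoxd4a was higher in every GSCT library, beside 6.04% of all genes.

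The lowest adjusted p belonged to hoxb10a, a posterior gene. It had 27.3, 21.0 and 7.96 CPM in GSCT and 41.6, 37.1, 41.9, 41.2 and 30.9 CPM in grass carp. All GSCT libraries lay below all grass carp libraries, but the 7.96 CPM of GSCT replicate 3 is only 3 counts, the floor of that library. The log2 fold change was -0.71 ± 0.21 (SE), with an edgeR adjusted p of 0.0547. Of the alternatives run, 5 gave an adjusted p under 0.05, and over all 13 it ranged from 0.0345 to 0.266. These 5 were library size alone (0.0378), no filter (0.0469, where 0.945% of all genes were called lower), the replicate block (0.0345), and leaving out grass carp replicate 2 (0.0486) or replicate 5 (0.0401).

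The trunk gene hoxb5a had 25.0, 24.8 and 26.5 CPM in GSCT and 40.8, 64.3, 24.3, 33.0 and 81.7 CPM in grass carp. The GSCT values were close, but that of GSCT replicate 3 rests on 10 counts, so how alike the fish were is not resolved. Grass carp replicate 3 lay just below the GSCT libraries and was the only grass carp library not above them. Its log2 fold change was -0.93 ± 0.33 (SE), with an edgeR adjusted p of 0.125. The adjusted p was 0.0285 with the replicate block and 0.0182 without grass carp replicate 3, where the log2 fold change was -1.13. Over 13 alternatives it ranged from 0.0182 to 0.374.

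Hindbrain and spinal cord gene hoxd4a had 61.5, 60.8 and 71.6 CPM in GSCT and 49.1, 52.8, 44.7, 51.7 and 55.9 in grass carp. All GSCT libraries lay above all grass carp libraries, with a log2 fold change of 0.38 ± 0.14 (SE) and an edgeR adjusted p of 0.132. For hoxb8a the values were 18.4, 13.1 and 21.2 CPM in GSCT and 13.7, 6.01, 12.6, 11.98 and 7.31 in grass carp. GSCT was higher apart from 1 overlapping pair of libraries, with a log2 fold change of 0.76 ± 0.30 (SE) and an edgeR adjusted p of 0.159.

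Of the remaining genes in the 6 with the lowest p, hoxb6a had 5.38, 3.74 and 2.65 CPM in GSCT, the last from 1 count. In grass carp it had 15.05, 4.44, 9.25, 13.5 and 7.86 CPM. Grass carp replicate 2 lay within the GSCT range, and the log2 fold change was -1.06 ± 0.44 (SE; edgeR adjusted p 0.182). In hoxc5a the values were 14.99, 14.97 and 26.5 CPM in GSCT and 23.1, 16.99, 26.8, 24.7 and 24.1 in grass carp. GSCT replicate 3 lay among the grass carp libraries, and the log2 fold change was -0.43 ± 0.23 (SE; edgeR adjusted p 0.298). The alternatives gave adjusted p values from 0.0589 to 0.507 for hoxb6a and from 0.152 to 0.662 for hoxc5a.

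By cluster, the median log2 fold change ranged from -0.25 in hoxca, where 10 of 11 genes were below 0, to 0.10 in hoxda, where 3 of 7 were. In hoxba the fold changes spread from -1.06 for hoxb6a to 0.76 for hoxb8a. Posterior genes had a median of -0.16, with 16 of 22 below 0, and central genes 0.03, with 7 of 15 below 0. None of these genes passed the test. In a simulation of this comparison over 28165 genes the test recovered 91 of 100 genes changed by 2 on the log2 scale and 7 of 100 changed by 1. The simulation gave every gene the same dispersion, which was not fitted to these data. Changes of the sizes seen here could therefore be missed, but how often is not known.

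**Figure D2:**
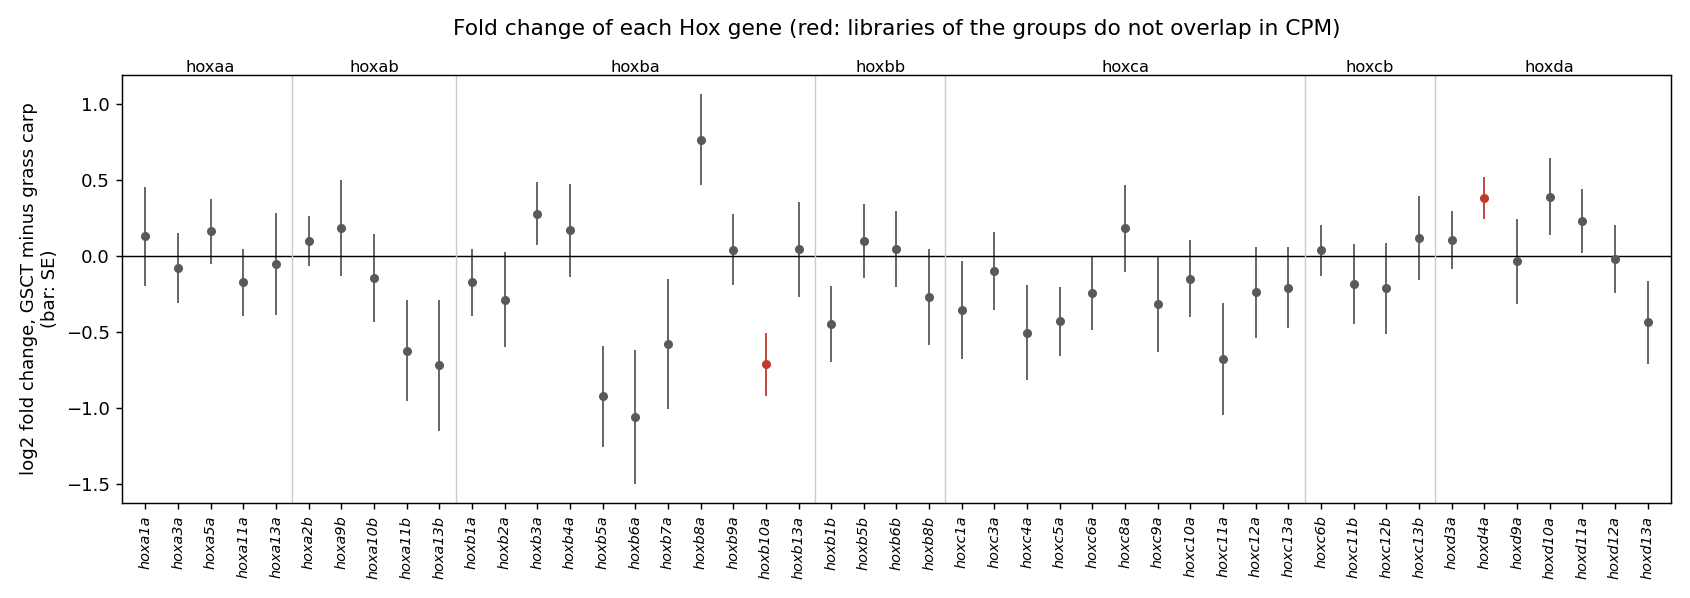
Points are log2 fold changes, GSCT minus grass carp, from edgeR with bars of 1 SE, for the 47 Hox genes ordered by cluster. Most points lie within 0.5 of 0, and the red points are hoxb10a at -0.71 and hoxd4a at 0.38, whose libraries do not overlap between the groups.

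Genes listed as partners, regulators or neighbours of Hox genes did not pass the test between GSCT and grass carp either. Over all 28165 genes tested 4.34% passed, so 0 in lists of 9 to 28 genes, here and below, is near that share. Among 15 TALE homeobox genes of the Pbx, Meis, Pknox and Tgif families, some of which encode DNA-binding partners of Hox proteins, 0 passed and the median log2 fold change was 0.00. The lowest p was that of meis3, at 0.44 ± 0.14 (SE; edgeR adjusted p 0.0754). Of 9 Cdx, Gsx, Evx and other genes, listed together as upstream or ParaHox, 0 passed, with a median of 0.04. The genes evx1, evx2 and eve1 in this list are neighbours of the clusters. The even-skipped gene evx1 had 16.2 ± 6.07 CPM (SD, n = 3) in GSCT, against 16.5 ± 3.72 (SD, n = 5) in grass carp, and evx2 15.6 ± 4.44 and 16.2 ± 4.03. Of 13 retinoic acid genes 9 were in the files and 0 passed, with a median of 0.05. The lowest p there was that of aldh1a2, which makes retinoic acid, a signal that induces anterior Hox genes in the embryo (edgeR adjusted p 0.245).

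Polycomb and trithorax proteins keep Hox genes silent or active. Of 20 polycomb genes listed 18 were in the files, and 0 passed, with a median log2 fold change of -0.13. Their lowest p belonged to cbx8a, at -0.80 ± 0.25 (SE; edgeR adjusted p 0.0777), and to eed, at 0.75 ± 0.25 (SE; edgeR adjusted p 0.0960). Among 12 trithorax genes 0 passed, with a median of -0.02. The histone methyltransferase gene kmt2d was at 0.52 ± 0.16 (SE; edgeR adjusted p 0.0644). Of the 28 flanking genes 0 passed, the lowest p being that of nfe2l2a at 0.57 ± 0.18 and skap2 at -0.71 ± 0.22 (SE; edgeR adjusted p 0.0754 and 0.0798). Unadjusted p values under 0.05 were found for 3 TALE, 0 upstream or ParaHox, 1 retinoic acid, 7 polycomb, 3 trithorax and 4 flanking genes, in lists of 15, 9, 9, 18, 12 and 28, beside 20% of all genes. These lists overlap: evx1, evx2 and eve1, and rarga and rargb of the retinoic acid list, are also flanking genes.

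In zebrafish libraries Hox genes were counted far more often than other genes. At least 1 count was found on 38 of 47 Hox genes (80.9%), beside 33.0% of 25083 other protein-coding genes. In at least 3 libraries it was 31 Hox genes (66.0%) beside 11.5%. By library, 68.1%, 66.0%, 6.38%, 63.8% and 74.5% of Hox genes had a count, against 23.2%, 14.8%, 0.865%, 12.5% and 18.2% of other coding genes. In the 4 libraries other than replicate 3, 26 Hox genes (55.3%) were counted in all, beside 5.97% of other coding genes. The part of sequence likeness between the species in this was not tested.

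Other developmental lists were also counted often, though in fewer libraries. Of the TALE genes 14 of 15 (93.3%) had a count in at least 1 library and 33.3% in at least 3. The ParaHox list followed with 77.8% and 44.4%, and retinoic acid genes with 66.7% and 33.3%. Polycomb genes were at 66.7% and 22.2%, trithorax genes at 66.7% and 25.0%, and flanking genes at 57.1% and 25.0%.

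**Figure D3:**
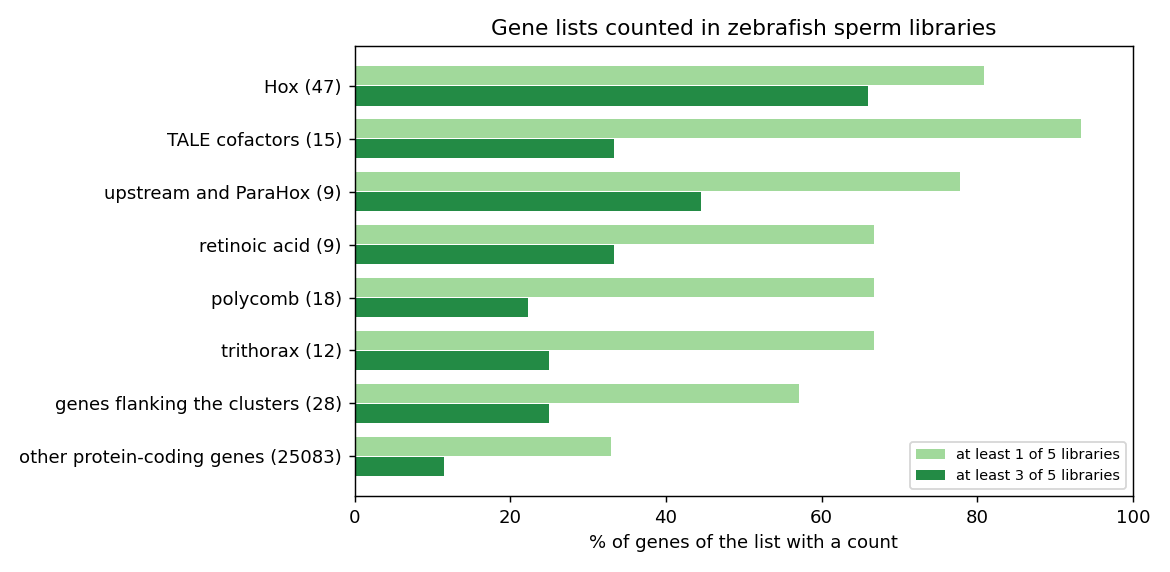
Bars give the percent of each list's genes with a count in at least 1 (light) or at least 3 (dark) of 5 zebrafish libraries, with the list size in brackets. The dark bar of the Hox genes reaches 66.0% and that of 25083 other protein-coding genes 11.5%.

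The Hox share of named counts was 0.147%, 0.427%, 1.85%, 0.186% and 0.172% in zebrafish replicates 1 to 5. Every zebrafish library lay above every GSCT and grass carp library. The 1.85% of replicate 3 rests on 9 of 487 counts (95% Wilson interval 0.975% to 3.47%), and without it the mean was 0.233% ± 0.130 (SD, n = 4). When mitochondrial and rRNA genes were left out of the totals, the zebrafish shares were 1.06%, 0.513%, 2.04%, 0.392% and 0.335%, against a GSCT mean of 0.0908% ± 0.00737 (SD, n = 3) and a grass carp mean of 0.0968% ± 0.00750 (SD, n = 5). These shares are relative to what else aligned to grass carp genes and do not measure how much Hox RNA zebrafish sperm held.

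**Figure D4:**
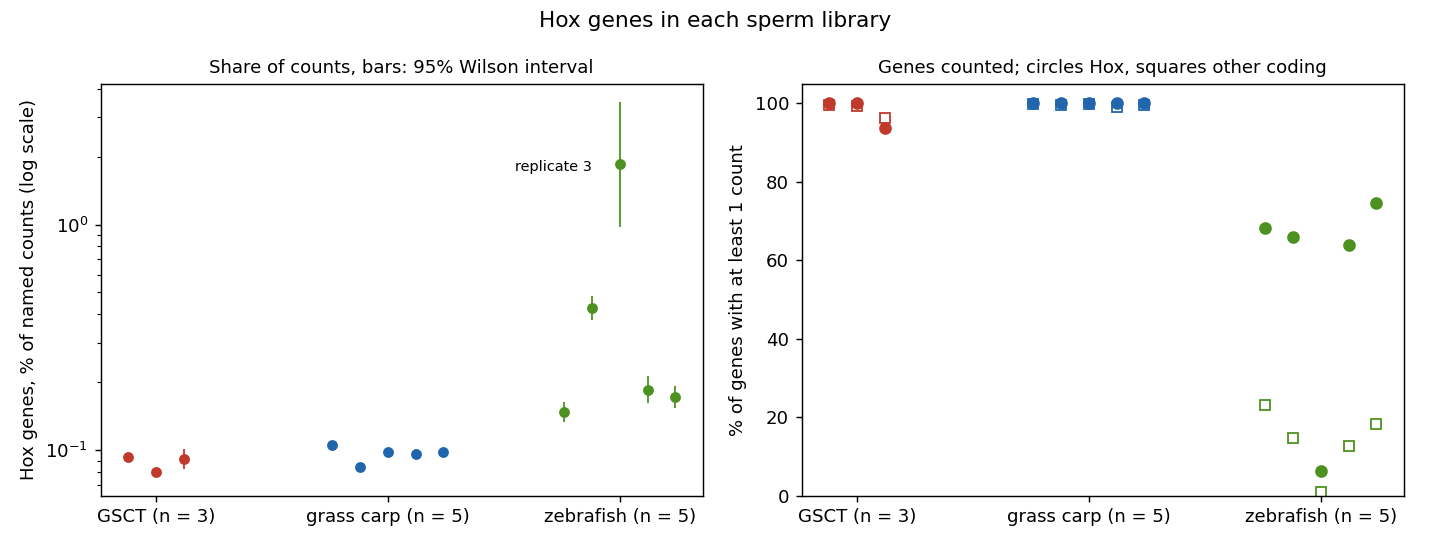
Left, the percent of named counts on Hox genes in each library, on a log scale with 95% Wilson intervals. Right, the percent of Hox genes (circles) and of other protein-coding genes (squares) with at least 1 count: zebrafish circles lie at 6.38% to 74.5% and squares at 0.865% to 23.2%, while both are above 90 in every GSCT and grass carp library.

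The zebrafish counts were uneven over the clusters. All 11 hoxba genes had a count, and this cluster held 415 of the 1139 Hox counts (36.4%). The hoxca cluster held 360 (31.6%) on 10 of 11 genes, hoxbb 107 on 3 of 4, hoxda 104 on 6 of 7, hoxab 92 on 5 of 5 and hoxaa 61 on 3 of 5. No zebrafish count fell on hoxcb, the cluster with the highest median per kilobase, though not in CPM, in grass carp. By axis, the 15 central genes held 488 counts (42.8%), the 22 posterior genes 356 (31.3%) and the 10 anterior genes 295 (25.9%). Hoxb3a alone held 177 counts, which are part of both the hoxba and the anterior totals. Its span overlaps the central genes hoxb4a, hoxb5a and hoxb6a, so where its reads belong is uncertain. Across the 47 genes the Spearman correlation of mean CPM between zebrafish and grass carp was 0.0523.

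The 9 genes with no zebrafish count were hoxd13a, hoxc6b, hoxc11b, hoxc12b, hoxc13b, hoxb8b, hoxa11a, hoxa1a and hoxc3a. For hoxc6b the GSCT mean of 88.6 ± 22.1 CPM (SD, n = 3) was 17.6-fold the 5.03 CPM that 3 counts over the whole zebrafish group stand for. The grass carp mean of hoxc6b, 85.3 ± 14.9 CPM (SD, n = 5), was 16.97-fold that floor. Against the higher floor of a single zebrafish library both folds would be smaller. The other 8 genes had means of 10.1 to 15.4 CPM in GSCT and 10.7 to 19.3 in grass carp, near the 12.1 CPM that 3 counts stand for in the deepest zebrafish library, so no fold is given for them.

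Among anterior genes, hoxb3a, a hindbrain gene, drew the most zebrafish counts of all, with 24, 44, 4, 35 and 70 in replicates 1 to 5, or 15.5% of all Hox counts. Its span is long and overlaps 3 Hox genes in the RefSeq table. Hoxd3a had 5, 10, 0, 6 and 21 counts, hoxb2a 5, 3, 0, 7 and 11, and hoxa2b 8, 4, 0, 3 and 7. These genes were counted in every library but replicate 3, and hoxb3a there as well. Group 1 genes were sparse: hoxb1b had 4, 0, 0, 1 and 4 counts, and hoxb1a, which sets facial motor neuron identity in the zebrafish hindbrain, had 12 counts, all in replicate 5. The 4 counts of hoxc1a were also all in replicate 5, and hoxa3a had 2, 0, 0, 1 and 0.

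Among central genes, hoxb5b, the duplicate of hoxb5a, had 28, 10, 4, 5 and 22 counts, and hoxc6a, whose mouse counterpart Hoxc6 marks forelimb motor neurons, had 23, 21, 0, 12 and 15. Hoxb5a had 30, 19, 0, 7 and 5 counts. Each was counted in all libraries other than replicate 3, where 4 counts fell on hoxb5b. The pattern of hoxa5a differed, with 35, 3, 0, 0 and 18 counts.

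Of group 4, hoxb4a had 14, 14, 0, 7 and 6 counts, hoxc4a 12, 7, 0, 8 and 4, and hoxd4a 6, 2, 0, 3 and 6. Hoxc5a had 13, 9, 0, 8 and 7 counts, and hoxc8a 2, 10, 0, 8 and 5. All 5 were present in 4 of 5 libraries. In the b clusters, hoxb6b had 16, 5, 0, 4 and 4 counts, hoxb6a 6, 3, 0, 4 and 3, and hoxb7a 9, 2, 0, 3 and 2. Only hoxb8a among these, with 10, 4, 0, 0 and 5, missed replicate 4 as well.

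Among posterior genes of hoxca, hoxc9a had 40, 6, 0, 10 and 9 counts, hoxc10a 7, 5, 0, 8 and 3, hoxc11a 16, 7, 0, 6 and 11, hoxc12a 12, 13, 0, 11 and 3, and hoxc13a 7, 10, 0, 3 and 5. These 5 genes are neighbours, and each was counted in every library but replicate 3. Their hoxcb duplicates hoxc11b, hoxc12b and hoxc13b had none.

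In hoxab, hoxa9b had 6, 4, 0, 5 and 8 counts, hoxa10b 7, 3, 0, 2 and 4, hoxa11b 0, 4, 0, 5 and 3, and hoxa13b 4, 8, 0, 1 and 6. In hoxba, hoxb9a had 2, 6, 0, 9 and 6, and hoxb13a, a tail gene, 2, 3, 0, 3 and 15. In hoxda, hoxd10a was counted in all 5 libraries, with 5, 9, 1, 5 and 1, and the others in fewer: hoxd11a had 0, 4, 0, 6 and 6, and hoxd9a 4, 1, 0, 0 and 0. The few remaining counts were 3 on hoxd12a and 1 on hoxb10a, both in replicate 5, and 2 on hoxa13a in replicate 1.

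**Figure D5:**
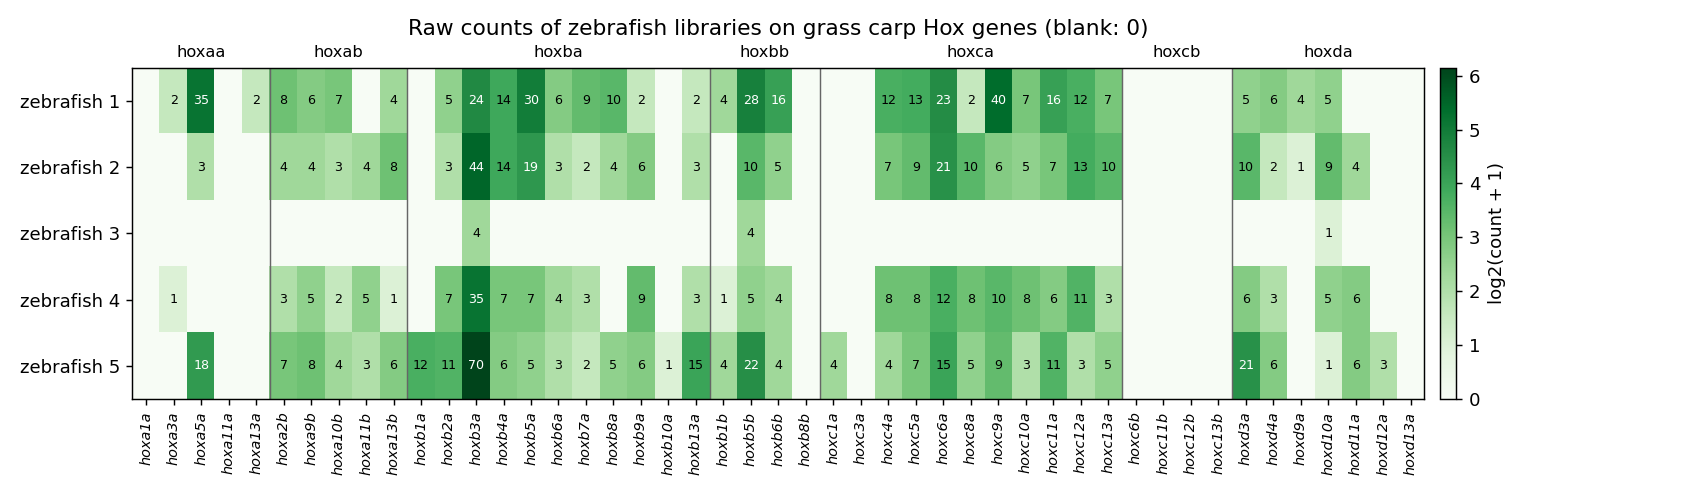
Each cell gives the raw count of 1 zebrafish library (rows) on 1 grass carp Hox gene (columns, by cluster), with colour for log2(count + 1) and blank cells for 0. The hoxcb columns are empty, replicate 3 has only 9 counts, and hoxb3a, with 24 to 70 in the other libraries, is the darkest column.

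Scaled to library size, hoxb5b stood at 113, 169, 8214, 47.4 and 120 CPM in zebrafish replicates 1 to 5. In GSCT it ranged from 11.2 to 23.9 CPM and in grass carp from 14.8 to 20.2. Hoxc6a stood at 92.6, 354.5, 0, 114 and 81.8 CPM in zebrafish, and at 10.6 to 16.1 in GSCT and 13.9 to 24.9 in grass carp. Apart from replicate 3, all zebrafish libraries were above all libraries of the other groups for both genes. The same held for hoxc9a, with 161, 101, 0, 94.8 and 49.1 CPM in zebrafish against 5.31 (2 counts) to 8.21 elsewhere. It also held for hoxc11a, with 64.4, 118, 0, 56.9 and 60.02 CPM against 2.34 to 11.9. This was not particular to Hox genes. Outside replicate 3, the TALE gene meis1b stood at 87.3 to 330 CPM against 14.1 to 33.0 elsewhere, and pbx3b at 52.4 to 152 against 24.7 to 41.2. The mesoderm list's pax2a stood at 85.3 to 213 CPM against 16.5 to 34.5, and the flanking gene hnrnpa1b at 16.9 to 38.2 against 4.97 to 15.05. Other genes of the lists did not show it. Leaving out replicate 3, 15 Hox genes (31.9%) lay above the whole grass carp range in every zebrafish library, beside 0.777% of other coding genes. A single count stands for 4.03 to 16.9 CPM in these libraries, so a gene low in grass carp, such as hoxc9a, can pass on few counts. Other coding genes had a higher median in grass carp, 28.3 CPM against 15.3 for Hox genes. The shares are therefore not like for like, and nothing more is read from them.

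Between GSCT and zebrafish, 16 of 47 Hox genes passed the filter on low counts and a gene low in GSCT could pass it through its zebrafish level alone. Without that filter edgeR called 37 of 47, beside 70.4% of 30337 genes: 27 were lower in GSCT, beside 2.91%, and 10 higher, beside 67.5%. The 10 higher were hoxb10a, with 1 zebrafish count, and the 9 genes with none. Apart from hoxc6b and hoxb10a, their GSCT means lay near the 12.1 CPM floor of the deepest zebrafish library, so the size of these differences is not read. The other scalings were run only with the filter, so how far this unfiltered split rests on TMM scaling was not tested. With the filter edgeR called 15 of 16, beside 87.3% of 5622 genes: 14 lower, beside 9.94%, and only hoxc6b higher, beside 77.3%. Nothing is read from this filtered split, since the filter itself favours genes that are high in zebrafish. With the filter kept, the split was 7 lower and 2 higher by DESeq2, beside 2.69% and 90.8% of all genes tested. It was 6 and 2 with RLE factors, beside 2.88% and 91.4%, and 10 and 2 with library size alone, beside 3.77% and 89.8%. The scaling moved the median of all genes from 4.14 to between 5.89 and 6.39 on the log2 scale. The median of the filtered Hox genes moved from -3.16 to between -1.09 and -0.73.

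For 4 genes picked because they were counted in zebrafish, fold changes are given as a description, with no test. The log2 fold change by edgeR, GSCT minus zebrafish, was -5.31 ± 0.59 (SE) for hoxc9a and -4.72 ± 0.45 for hoxc11a. It was -4.22 ± 0.67 for hoxc6a and -3.90 ± 0.68 for hoxb5b. Over the alternatives it ranged from -6.35 to -2.90 for hoxc9a, where 12 of 13 gave a value, from -5.62 to -2.28 for hoxc11a, from -4.86 to -1.75 for hoxc6a and from -4.81 to -1.45 for hoxb5b. Its size depended on the scaling.

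Grass carp against the same zebrafish libraries gave 28 of 47 Hox genes lower and 9 higher by edgeR without the filter, beside 3.4% and 68.2% of 30501 genes (71.6% in either direction). The 9 higher were hoxb10a and the genes with no zebrafish count other than hoxa1a, most of them near the zebrafish floor. Here too the fit without the filter was run with TMM scaling only. With the filter 33 Hox genes were tested and 27 called, beside 82.1% of 20106 genes. Of these 24 were lower, beside 6.48%, and 3 higher, beside 75.6%, and again nothing is read from the filtered split. This split turned with the scaling, to 7 lower and 10 higher by DESeq2, beside 1.02% and 95.1% of all genes tested, and to 6 lower and 11 higher with RLE factors, beside 1.4% and 95.2%. With library size alone it was 18 lower and 7 higher, beside 2.6% and 91.4%. The log2 fold change was -4.39 ± 0.29 for hoxb5b and -4.36 ± 0.33 for hoxc6a (SE), again as a description. This comparison and the one of GSCT share the zebrafish libraries, so they are not independent of each other.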

How the data were processed

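Raw counts of reads per gene were deposited by the authors, 1 file per library over 31338 entries. Named in the submitters' processing notes, with no role or order, are featureCounts, Subread, HISAT2, SAMtools, fastp, FastQC and CASAVA. The build, strand and multi-mapping settings are not given in those notes; coordinates are therefore left out, and overlapping or near-identical genes are uncertain. Of the 31338 entries, 24 have no name and were left out. They held 13.8% to 77.9% of the counts of a zebrafish library.

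CPM is scaled to the total of named counts. Gene spans, neighbours and overlaps come from a grass carp RefSeq table (assembly HZGC01), in which all 47 Hox symbols were found. Groups were compared pairwise with edgeR 4.0.16 in R 4.3.3 (only the libraries of both groups, TMM, filterByExpr with a minimum count of 10 and minimum total of 15, glmQLFit and glmQLFTest, Benjamini-Hochberg over all genes tested, threshold 0.05). SE is the log2 fold change divided by the square root of F. The comparison was tested on simulated counts. Intervals and floors cover counting error only, since amplified reads are not independent molecules. Fish were 1 per library.

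Values per library are given for Hox genes called between GSCT and grass carp (none), the 6 with the lowest p, the highest and lowest of each cluster by grass carp CPM, and those with a zebrafish count, which are given by zebrafish count. Of the other lists, called genes and up to 3 with the lowest p could be named, and evx1 and evx2 were chosen as cluster neighbours. The genes meis1b, pbx3b, pax2a and hnrnpa1b were named for their zebrafish level. The Hox set, the lists and the rules were chosen with earlier results of these data known. Alternatives were DESeq2 1.42.0, RLE factors, library size alone, no filter, a replicate block and each library left out. Same-numbered libraries did not vary together (correlations of 0.0455, 0.0492 and -0.00859 for GSCT and grass carp), so the numbers were not taken as pairs.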

Additional observations from a re-analysis of the deposited data

Results flagged for a closer look

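In zebrafish replicate 3 the Hox share of named counts was 1.85%, far from the 0.147% to 0.427% of the other zebrafish libraries. In the same library hoxb3a stood at 8214 CPM, against 96.6 to 743 in the others, and hoxb5b at 8214 CPM, against 47.4 to 169. The values rest on 9, 4 and 4 of 487 counts. Of 26 groups of values examined in this way 3 stood out, and chance alone gives about 1 in 20. All 3 come from this library, where a single count stands for 2053 CPM. They are thus not independent of each other, and their number cannot be set against chance.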

How the results depend on the processing

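The genes called between GSCT and grass carp, 1223, ranged from 285 to 1534 when each library was left out, with 679, 285 and 812 without GSCT replicates 1, 2 and 3 and 802 without grass carp replicate 5. Hox genes called there, 0, became 1 with library size alone and 1 without the filter (hoxb10a in both), and 0 to 1 with a library left out. With the replicate block there were 2 (hoxb10a and hoxb5a, both -0.81 on the log2 scale). DESeq2 and RLE factors gave 0. All genes called were 1140 of 28165 with library size alone, 1248 of 30591 without the filter and 996 of 28165 with the replicate block. They were 968 by DESeq2 and 1211 with RLE factors, of 28165. The replicate block, on numbers that do not pair the fish, gave 996 genes called between GSCT and grass carp, 3839 between GSCT and zebrafish and 15269 between grass carp and zebrafish. For GSCT and zebrafish the 4906 genes called became 21351 without the filter, and 3646 to 6000 with a library left out. Hox genes called there, 15 of 16 tested, became 9 by DESeq2, 8 with RLE factors and 37 of 47 without the filter. All genes called in these 4 fits were 4906, 5253 and 5298 of 5622, and 21351 of 30337. With a library left out, 6 to 18 Hox genes were called. It was 6 of 7 tested without zebrafish replicate 1, 9 of 10 without replicate 4 and 18 of 21 without GSCT replicate 3. All genes called were there 3646 of 4166, 5888 of 6847 and 4220 of 5012. This set of alternatives was chosen after seeing the data. For grass carp and zebrafish the 16510 genes called became 6092 to 6177 with a grass carp library left out, where 7126 to 7243 genes passed the filter in place of 20106, 19824 to 20747 with a zebrafish library left out, and 21851 without the filter. Without division by span the median Hox level was 13.7 in GSCT, 15.3 in grass carp and 24.2 CPM in zebrafish, and without mitochondrial and rRNA genes 14.6 CPM per kilobase in zebrafish. Where the filter passed fewer genes, fewer could be called; the cause of the other changes was not tested. Zebrafish depth limits all levels there: all 47 Hox genes share 1139 counts over 5 libraries.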
